A study of Mus musculus with 2 samples.

Results

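Voltage-gated ion channels and the ATP-sensitive potassium (KATP) channel were described in islet cells of WT mice, across 144 of the 27998 genes in the gene list. The members were 99 genes whose symbols begin with Kcn, of potassium channels, their partners and some antisense RNAs that encode no channel. A further 26 begin with Cacna, Cacnb or Cacng, of voltage-gated calcium channels. Added to these were 14 with Scn and a digit (voltage-gated sodium channels), 4 with Hcn (pacemaker channels) and Abcc8. A member was read where it reached 5 UMIs per 1000000 UMIs of the class (CPM) in at least 1 class of cells, UMIs being the unique molecular identifiers that each stand for 1 captured transcript. Of the 144 members, 43 were read. These were 23 Kcn, 12 Cacn, 5 Scn and 2 Hcn genes and Abcc8. Of the 101 others, 80 had UMIs below that level in the cells kept and 21 had none.

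The series holds islets of mice with a beta cell specific miR-203 transgene (miR-203 TG, 1 library) and of wild-type mice (WT, 1 library). All were male, 8 weeks old and fasted for 12 h, and neither the promoter that drives the transgene nor the number of mice behind a library was stated in the labels. The libraries were made with 10x Genomics single-cell 3′ v2 chemistry. The miR-203 TG cells were not analysed here, so every value below is of the single WT library and nothing is said of the transgene.

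In a beta cell, rising ATP from glucose breakdown closes the KATP channel, the membrane depolarises, voltage-gated calcium channels open and the entering calcium triggers release of insulin. Voltage-gated and calcium-activated potassium channels then repolarise the membrane, while two-pore potassium channels carry a background current. Alpha and delta cells carry a related set of channels and fire action potentials in which sodium and T-type calcium channels have a larger part than in mouse beta cells.

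Abcc8 and Cacna2d1 lay within 2-fold in CPM across the 4 endocrine classes. Genes that set the classes apart included 2 members of the KChIP family, calcium-binding partners of Kv4 channels: Kcnip1 stood at 27.1 CPM in beta and 5.46 CPM in alpha cells, and Kcnip3 at 0.324 CPM in beta and 18 CPM in alpha cells. Scn9a and Kcnk1 were lower in beta than in alpha, delta and PP cells. The promoters of these 4 genes are shown because they belong to the genes that differed between classes and were in the table of promoters used. They are given 5′ to 3′ on the strand of the gene, from 250 bases before to 50 bases after the annotated start, in RefSeq for build GRCm38.p6, with matches to the searched motifs in capitals. Kcnip1 (chr11:33993144-33993443, minus strand) and Kcnip3 (chr2:127522045-127522344, minus strand) are each given at the most upstream of 3 annotated starts. Scn9a (chr2:66634913-66635212, minus strand) and Kcnk1 (chr8:125994852-125995151, plus strand) each have 1 start in the table.
Kcnip1: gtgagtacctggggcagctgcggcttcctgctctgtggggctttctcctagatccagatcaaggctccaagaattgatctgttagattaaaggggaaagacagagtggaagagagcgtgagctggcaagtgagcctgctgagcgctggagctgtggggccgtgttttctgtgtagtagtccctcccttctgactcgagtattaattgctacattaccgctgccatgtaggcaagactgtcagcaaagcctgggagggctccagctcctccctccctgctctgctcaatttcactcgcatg
Kcnip3: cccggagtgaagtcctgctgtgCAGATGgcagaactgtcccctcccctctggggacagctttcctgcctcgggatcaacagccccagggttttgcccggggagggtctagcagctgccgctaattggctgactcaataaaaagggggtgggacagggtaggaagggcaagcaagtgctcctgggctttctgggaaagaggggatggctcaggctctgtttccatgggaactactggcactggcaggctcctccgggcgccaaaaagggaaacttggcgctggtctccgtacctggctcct
Scn9a: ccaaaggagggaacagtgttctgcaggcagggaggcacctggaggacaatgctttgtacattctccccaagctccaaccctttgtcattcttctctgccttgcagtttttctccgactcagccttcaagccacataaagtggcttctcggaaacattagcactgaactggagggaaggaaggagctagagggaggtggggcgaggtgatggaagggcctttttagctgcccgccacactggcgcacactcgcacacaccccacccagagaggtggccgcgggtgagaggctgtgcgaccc
Kcnk1: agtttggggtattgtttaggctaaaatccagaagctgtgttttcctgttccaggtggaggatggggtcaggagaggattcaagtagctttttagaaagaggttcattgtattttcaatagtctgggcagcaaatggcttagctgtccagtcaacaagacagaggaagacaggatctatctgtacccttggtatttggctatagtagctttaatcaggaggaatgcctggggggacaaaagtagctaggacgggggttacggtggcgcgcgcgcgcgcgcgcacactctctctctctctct
The capitals in the promoter of Kcnip3 mark CAGATG, an E-box bound by NeuroD1, on the strand shown, and the other 3 sequences held none of the motifs searched. The starts not shown differ: both others of Kcnip1 hold CAGATG and one of them a GC box, while both others of Kcnip3 hold a GC box and no CAGATG, so the motifs do not separate the 2 genes. The search covered both strands for TATAAA (the TATA box), for TGACGTCA (the cyclic AMP response element), for GGGCGG (the GC box), for CAGATG and for TAATTA (a homeobox core), none of which is contained in another. CAGATG lay in 25.5% of the 47 promoters of 29 read members, in 16.5% of 91 promoters of 74 other members and in 17.2% of all 32851 promoters. The GC box lay in 46.8% of the promoters of read members, 46.2% of those of other members and 35.7% of all. The TATA box lay in 2.13%, 5.49% and 13.6% of the same 3 sets, while the response element and the homeobox core were in no promoter of a member and in 1.79% and 5.29% of all promoters. A library of transcript 3′ ends does not show which start a cell used.

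Of 4547 WT barcodes with at least 5610 UMIs and 500 genes, 3261 had at least 30% insulin UMIs (beta), 471 at least 8% Gcg (alpha), 149 at least 3% Sst (delta), 117 at least 8% Ppy (PP) and 549 none of these. Median depth was 23415 UMIs in beta, 15455 in alpha, 9179 in delta, 21063 in PP and 16627 in the remaining barcodes. The summed counts behind the CPM values were 83301794, 7872718, 1722869, 2541022 and 9270269 UMIs in the same order, so beta cell levels carry the least counting error and delta cell levels the most. Insulin made 51.2% of the UMIs of beta cells, against 3.18% to 5.08% in alpha, delta and PP cells. Of the markers of each type, 7 of 9 beta, 7 of 8 alpha and 6 of 6 delta genes were highest in their own class among the 4, but only 1 of 4 PP genes (Pyy) was. The PP class is therefore named here by its Ppy share alone. It also held 1973 CPM of 3 summed haemoglobin genes, against 17 to 23.2 CPM in beta, alpha and delta cells. A single PP barcode held 98.96% of these haemoglobin UMIs, and without it the class stood at 20.6 CPM. Mafa, which marks mature beta cells, had 9 UMIs in the beta class. The labels describe a sort of goblet cells beside the islet origin, and Muc2, the mucin of goblet cells, had 4 UMIs in all cells kept.

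Free RNA in the droplets was limited for each class by the hormone that it should not make: at most 9.93% of beta, 8.78% of alpha, 14.1% of delta and 14.4% of PP UMIs, and 44.0% in the barcodes of no class. Every member of at least 5 CPM lay above that limit with its whole interval in the class where it reached 5 CPM: 22 members in beta, 29 in alpha, 35 in delta, 29 in PP and 33 in the remaining barcodes. All intervals are 95% exact intervals of counting error only. With 1 library there is no spread between animals and no test, and fewer UMIs of a gene because fewer cells hold it cannot be told from fewer per cell in the summed values. Just inside the level for reading a gene lay Kcnn3, Kcnd2 and Kcnu1 at 5.51, 5.22 and 5.08 CPM in their highest class. Just outside lay Kcnc1 and Cacna1g at 4.64 CPM each and Kcnn1 at 4.60 CPM.

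**Figure D1:**
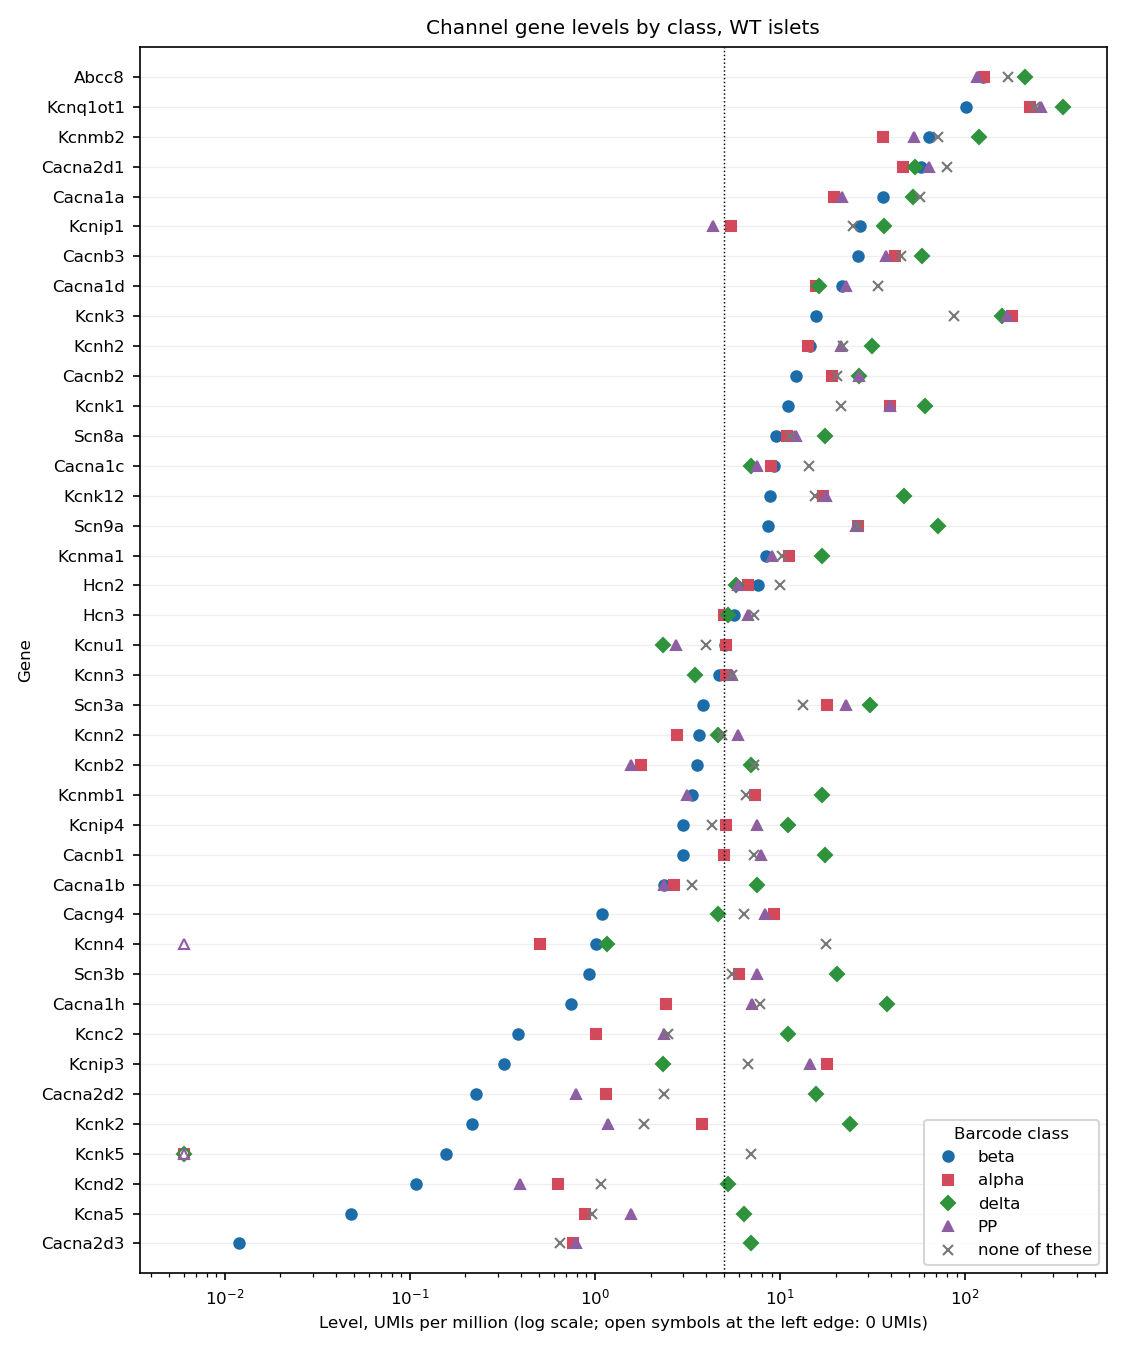
Level of 40 of the 43 read channel genes in CPM on a log scale, by class of WT barcodes, with the 5 CPM level dotted and open symbols for 0 UMIs. Abcc8 and Cacna2d1 lie close together in the 4 endocrine classes, Kcnk3 is at 15.6 CPM in beta and 158 to 180 CPM in the other 3, and Cacna1h, Kcnk2 and Cacna2d2 are at 15.7 to 37.7 CPM in delta and under 1 CPM in beta cells.

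Abcc8, which encodes the sulphonylurea receptor subunit SUR1 of the islet KATP channel, was the highest member in beta cells. It stood at 125 CPM in beta (122 to 127), 127 in alpha (119 to 135), 210 in delta (189 to 233), 116 in PP (104 to 130) and 171 in the remaining barcodes (162 to 179). The intervals of beta, alpha and PP cells overlapped, and delta cells lay above them. Kcnj11, which encodes the pore Kir6.2 that SUR1 surrounds, gave 53 UMIs in all 3261 beta cells, or 0.636 CPM (0.477 to 0.832). It had 3 UMIs in alpha (0.381 CPM, 0.0786 to 1.11), 0 in delta, 1 in PP and 3 in the remaining cells, counts too few to order the classes. Beta cells thus had 196 Abcc8 UMIs for each Kcnj11 UMI (150 to 262), although the channel holds both subunits in equal number. The 2 genes are neighbours on the minus strand of chromosome 7, Kcnj11 at 46093953 to 46100764 and Abcc8 at 46104523 to 46180033 (GENCODE M21 on GRCm38), 3759 bases apart. The annotation behind the counts was not stated, so the ratio is one of captured UMIs and not of transcripts.

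Of the calcium channel pores, Cacna1a (P/Q-type) had the highest level in beta cells and Cacna1d and Cacna1c, the L-type channels that carry much of the calcium current of beta cells, followed. Cacna1a stood at 36.2 CPM in beta (34.9 to 37.5), 19.7 in alpha (16.7 to 23.0), 52.2 in delta (42.0 to 64.2) and 21.6 in PP cells (16.3 to 28.2). Beta and delta cells were above alpha and PP cells without overlap of the intervals. Cacna1d stood at 21.7, 15.6, 16.2 and 22.8 CPM in beta, alpha, delta and PP cells, and Cacna1c at 9.26, 8.89, 6.96 and 7.48 CPM. Cacna1h, the pore of a T-type channel that opens at low voltage, had a different pattern: 0.744 CPM in beta (0.571 to 0.954), 2.41 in alpha (1.45 to 3.77), 37.7 in delta (29.1 to 48.1) and 7.08 in PP cells (4.20 to 11.2). Its delta UMIs came from 46 of 149 barcodes, and the barcode with most held 4.62% of them. Cacna1e, the R-type pore, had 2 UMIs in beta, 1 in alpha, 1 in delta, 1 in PP and 5 in the remaining cells, and was not read. Exons of Cacna1h overlap those of Tpsg1 and exons of Cacna1d those of Chdh on the other strand, and whether counting used strand was not stated.

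Of the auxiliary subunits of calcium channels, Cacna2d1, an alpha2delta subunit that carries pores to the membrane, lay within 2-fold in each contrast, at 57.6, 46.0, 53.4 and 64.2 CPM in beta, alpha, delta and PP cells. Its relatives Cacna2d2 and Cacna2d3 stood at 15.7 and 6.96 CPM in delta cells, against at most 1.14 CPM in any of the other 3 classes. Cacna2d3 had 1 UMI in all beta cells and 12 in delta cells. The beta subunit genes Cacnb3 and Cacnb2 stood at 26.5 and 12.2 CPM in beta and 58.6 and 26.7 CPM in delta cells, within 2-fold relative to the median gene. Cacng4, a gamma subunit, stood at 1.09 CPM in beta and 9.27, 4.64 and 8.26 CPM in alpha, delta and PP cells.

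Among voltage-gated potassium channels, Kcnh2 (ERG) stood at 14.4, 14.2, 31.3 and 21.2 CPM in beta, alpha, delta and PP cells. Kcnb2 (Kv2.2) passed 5 CPM in delta cells only among the 4 endocrine classes, at 6.96 CPM, with 3.54 in beta and 1.78 in alpha cells. Kcnc2 (Kv3.2), Kcnd2 (Kv4.2) and Kcna5 (Kv1.5) were read through delta cells alone among the classes, at 11, 5.22 and 6.38 CPM. Their beta levels were 0.384, 0.108 and 0.048 CPM. The delta levels rested on 19, 9 and 11 UMIs. The intervals of Kcnd2 (2.39 to 9.92) and Kcna5 (3.19 to 11.4) reached below 5 CPM in delta cells. Below the level for reading, Kcnd3 (Kv4.3) stood at 0.060 CPM in beta (5 UMIs) and 1.27 CPM in alpha cells (10 UMIs), and Kcnq1 at 0.144 CPM in beta (12 UMIs) with 0 UMIs in alpha cells.

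Among the 30 members compared in beta over alpha cells, KChIP genes gave the highest and the lowest ratio. Kcnip1 stood at 27.1 CPM in beta (26.0 to 28.2), 5.46 in alpha (3.95 to 7.36), 36.6 in delta (28.1 to 46.8) and 4.33 in PP cells (2.16 to 7.75). In PP cells that interval reached below the free RNA limit of 3.42 CPM. Kcnip3, also known as DREAM or calsenilin for its roles in transcription and presenilin binding, stood at 0.324 CPM in beta (0.214 to 0.472), 18 in alpha (15.2 to 21.3), 2.32 in delta (0.633 to 5.94) and 14.6 in PP cells (10.2 to 20.1). The beta level was below its free RNA limit of 0.343 CPM. The 2 genes thus had opposite orders over the classes, Kcnip1 high in beta and delta cells and Kcnip3 high in alpha and PP cells. Kcnip4, another KChIP, stood at 3, 5.08, 11 and 7.48 CPM in beta, alpha, delta and PP cells.

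Of the calcium-activated potassium channels, Kcnmb2, an auxiliary subunit of the large-conductance (BK) channel, had the highest level: 64.1 CPM in beta (62.4 to 65.9), 35.8 in alpha (31.8 to 40.2), 118 in delta (103 to 136) and 53.1 in PP cells (44.5 to 62.9). The intervals put delta cells highest and alpha cells lowest in CPM, while relative to the median gene beta over delta cells lay at −0.06 (−0.26 to 0.15). Kcnma1, the BK pore, stood at 8.43, 11.2, 16.8 and 9.05 CPM in beta, alpha, delta and PP cells. Kcnu1, a relative of the BK pore described in sperm, stood at 5.02 CPM in beta and 5.08 in alpha cells, with 2.32 in delta and 2.75 in PP cells on 4 and 7 UMIs. The small-conductance genes Kcnn3 and Kcnn2 were between 2.79 and 5.90 CPM in all 4 classes.

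Kcnk3, the two-pore channel TASK-1 that carries a background potassium current, differed most between beta and the other endocrine cells among members that passed 100 CPM in a class. It stood at 15.6 CPM in beta (14.7 to 16.4), 180 in alpha (171 to 190), 158 in delta (140 to 178) and 168 in PP cells (152 to 184). Alpha, delta and PP cells overlapped in their intervals and beta cells lay far below. The two-pore genes Kcnk1 (TWIK-1) and Kcnk12 (THIK-2) were lowest in beta cells too, at 11.1 and 8.86 CPM, against 60.9 and 47.0 CPM in delta cells. Kcnk2 (TREK-1) stood at 23.8 CPM in delta cells (17.1 to 32.3) on 28 barcodes, against 0.216 CPM in beta, 3.81 in alpha and 1.18 in PP cells. Kcnk16 (TALK-1), a two-pore channel known from beta cells, was below the level for reading in every class. It stood at 1.15, 2.16, 4.06 and 3.15 CPM in beta, alpha, delta and PP cells. As for Kcnj11, these are levels of captured UMIs and not of transcripts. Of the inward rectifiers that G proteins open, Kcnj3 stood at 0.012 CPM in beta (1 UMI) and 3.05 CPM in alpha cells (24 UMIs), and Kcnj6 at 0.660 CPM (55 UMIs) and 1.91 CPM (15 UMIs), below the level for reading.

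Of the read sodium channel genes, Scn9a, Scn3a and Scn3b were over 2-fold lower in beta than in alpha, delta and PP cells relative to the median gene, and Scn8a lay within 2-fold. Scn9a (Nav1.7) stood at 8.58 CPM in beta (7.97 to 9.24), 26.3 in alpha (22.8 to 30.1), 71.4 in delta (59.3 to 85.2) and 25.6 in PP cells (19.7 to 32.6). Scn3a (Nav1.3) stood at 3.82, 17.9, 30.8 and 22.8 CPM, and Scn8a (Nav1.6) at 9.48, 10.9, 17.4 and 12.2 CPM in beta, alpha, delta and PP cells. The beta subunit Scn3b had 0.924 CPM in beta, 5.97 in alpha, 20.3 in delta and 7.48 in PP cells. For Scn8a the intervals of beta, alpha and PP cells overlapped. Exons of Scn9a overlap those of Gm13629 on the other strand.

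**Figure D2:**
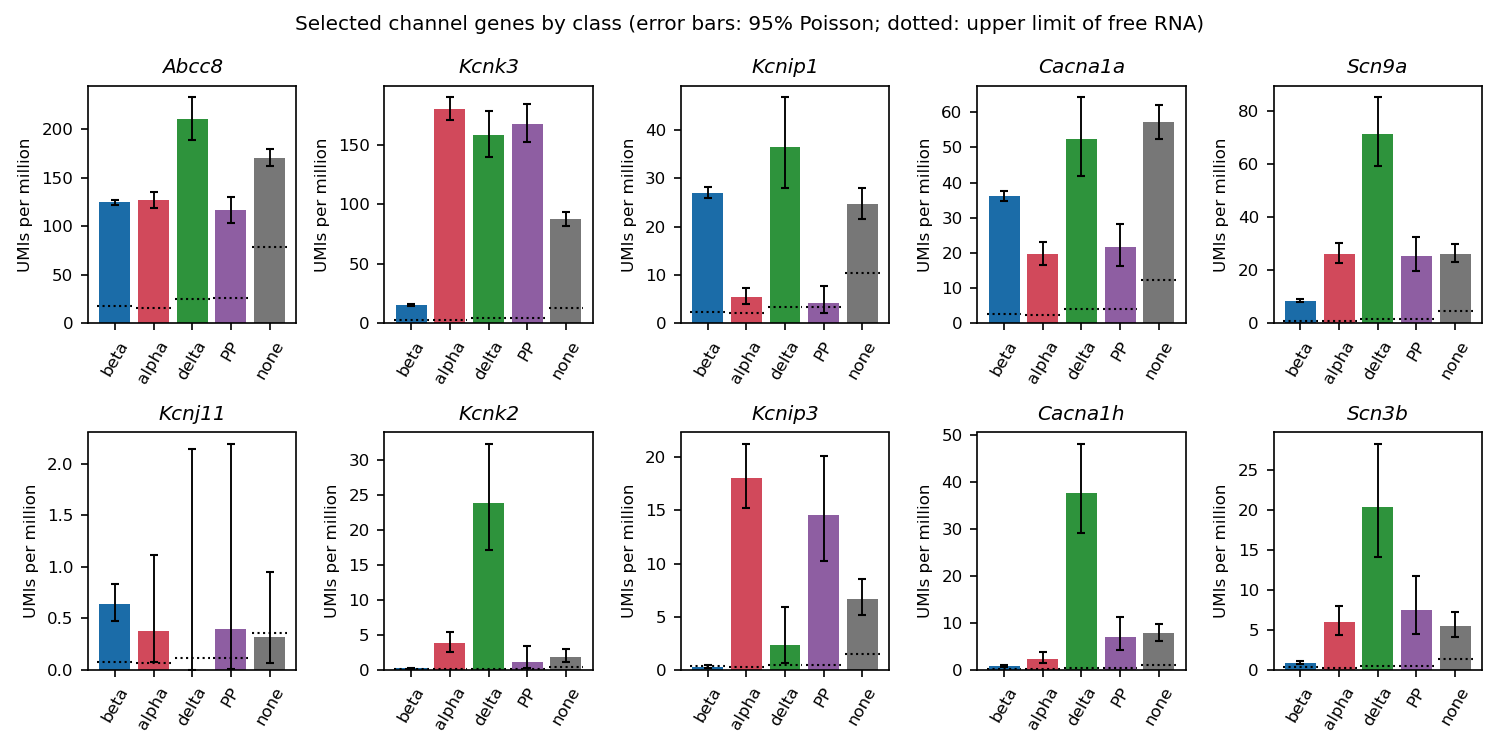
Levels of 10 channel genes in CPM in each class of WT barcodes, with bars for the summed count, error bars for 95% Poisson intervals and dotted lines for the upper limit of free RNA. Beta cells are lowest for Kcnk3 (15.6 CPM) and Scn9a (8.58 CPM), delta cells stand out for Cacna1h (37.7 CPM) and Kcnk2 (23.8 CPM), and Kcnip1 and Kcnip3 are high in different classes.

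The pacemaker channels Hcn2 and Hcn3, which open on hyperpolarisation, were low, at 5.80 to 7.65 CPM and 4.95 to 6.69 CPM over the 4 classes. Kcnq1ot1, a long non-coding RNA read antisense to the potassium channel gene Kcnq1 in an imprinted region, falls under the symbol rule although it encodes no channel. It stood at 100.8 CPM in beta, 224 in alpha, 338 in delta and 255 in PP cells, the highest member in each of the last 3. Its exons overlap those of Kcnq1 on the other strand, and so its counts and those of Kcnq1 may be mixed where strand was not used.

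Levels were next compared as log2 ratios relative to the median gene, because the insulin of beta cells takes up CPM. The median gene lay at log2 −0.37 in beta over alpha, −0.83 in beta over delta, −0.27 in beta over PP and −0.45 in alpha over delta cells. A gene of at least 5 CPM in either class counted as higher or lower past 2-fold. The 3 contrasts of beta cells share the beta sums, so their values are given side by side and no overlap between them is read.

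In beta over alpha cells, 30 members were compared, of which 3 were higher, beside 8.28% of all 9023 genes, and 7 lower, beside 8.21%. The shares of members were 10.0% and 23.3%, and their median was 0.07. Kcnip1 was higher by 2.68 (2.25 to 3.15), Cacna1a by 1.25 (1.02 to 1.49) and Kcnmb2 by 1.21 (1.04 to 1.39). Kcnip3 had the lowest ratio at −5.42 (−6.08 to −4.82), with its beta level under the free RNA limit, followed by Kcnk3 at −3.16 (−3.27 to −3.05) and Cacng4 at −2.71 (−3.17 to −2.25). Scn3b, Scn3a, Kcnk1 and Scn9a lay at −2.32, −1.86, −1.44 and −1.24. Abcc8 lay at 0.35 and Cacna1d at 0.85, within 2-fold. Of the 7 lower members, 4 reached 5 CPM in alpha cells only. With no centring on the median gene the split was 1 higher and 10 lower, beside 4.84% and 14.9% of all genes. With totals that held neither hormone nor mitochondrial UMIs it was 5 and 6, beside 16.5% and 4.99%.

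In beta over delta cells, 36 members were compared, of which 4 were higher, beside 8.01% of all 9780 genes, and 16 lower, beside 9.91%. The shares of members were 11.1% and 44.4%, and their median was −0.58. Cacna2d3 lay at −8.35 on 1 beta UMI (−13.77 to −5.59), Kcna5 at −6.23, Kcnk2 at −5.95 (−6.84 to −5.12), Cacna2d2 at −5.27, Cacna1h at −4.83 (−5.36 to −4.31) and Kcnd2 at −4.77. For Cacna2d3, Kcna5 and Kcnd2 the beta level was not above the free RNA limit. Kcnk3 lay at −2.51 (−2.70 to −2.32) and Scn9a at −2.23 (−2.50 to −1.94). Of the lower members, Kcnip4 and Kcnmb1 had intervals that reached below 2-fold. The 4 higher members were Kcnu1 at 1.94 (0.57 to 3.82), Cacna1d at 1.25 (0.71 to 1.84), Cacna1c at 1.24 (0.43 to 2.20) and Hcn2 at 1.23 (0.34 to 2.29), and each interval reached below 2-fold. Of the 16 lower members, 12 reached 5 CPM in delta cells only, so the floor favours that direction. At a floor of 20 CPM, 8 of 20 members were lower, beside 7.65% of all genes. Each of these 8 reached 20 CPM in delta cells only, so the higher floor favours the same direction and is no check on it. With no centring the split was 1 higher and 21 lower, beside 2.29% and 38.8% of all genes.

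In beta over PP cells, 3 of 31 members were higher, beside 7.44% of all 9002 genes, and 11 lower, beside 7.14%, with a median of −0.23. Kcnip1 was higher by 2.92 (2.07 to 3.92), against a PP level not above free RNA, Kcnu1 by 1.14 (0.08 to 2.46) on 7 PP UMIs and Cacna1a by 1.01 (0.63 to 1.42), both with intervals that reached below 2-fold. Kcnip3 lay at −5.22, Kcnk3 at −3.16 (−3.32 to −3.0), Cacna1h at −2.98, Scn3b at −2.75, Cacng4 at −2.65 and Scn3a at −2.31. Of the lower members, Kcnip4, Kcnq1ot1, Cacnb1 and Scn9a had intervals that reached below 2-fold. With beta and PP barcodes of fewer than 10 haemoglobin UMIs only, an alternative chosen after seeing the data, 3 were higher and 11 lower. That alternative left out 1 PP barcode. Of the 11 lower members, 7 reached 5 CPM in PP cells only, and at a floor of 10 CPM 6 of 19 were lower, beside 5.82% of all genes. Of these 6, Scn9a, Scn3a and Kcnip3 reached 10 CPM in PP cells only. With no centring the split was 1 higher and 12 lower, beside 4.80% and 11.5%.

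In alpha over delta cells, 4 of 40 members were higher, beside 4.74% of all 9815 genes, and 14 were lower, beside 7.66%, with a median of −0.30. Kcnip3 was higher by 3.41 (2.02 to 5.30), Kcnu1 by 1.58 and Cacng4 by 1.45, and the intervals of Kcnu1 and Cacng4 reached below 2-fold. Cacna1h lay at −3.52 (−4.34 to −2.76), Cacna2d2 at −3.33 (−4.60 to −2.19), Kcnc2 at −2.99, Kcnip1 at −2.29 (−2.89 to −1.71) and Kcnk2 at −2.19 (−2.92 to −1.48). Kcnmb2 lay at −1.27 (−1.54 to −1.01). Among the lower members, Kcnk12, Cacna1b, Scn3b, Cacnb1, Kcnb2, Kcna5 and Kcnd2 had intervals that reached below 2-fold. That of Cacna1b reached 0.07. Kcnk3 lay at 0.64, within 2-fold. Of the 14 lower members, 10 reached 5 CPM in delta cells only, and the 4 higher ones did so in alpha cells only. At a floor of 20 CPM, 6 of 19 were lower and 0 higher, beside 5.07% and 3.34% of all genes. Of these 6, all but Kcnmb2 reached 20 CPM in delta cells only, so the higher floor favours the same direction.

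**Figure D3:**
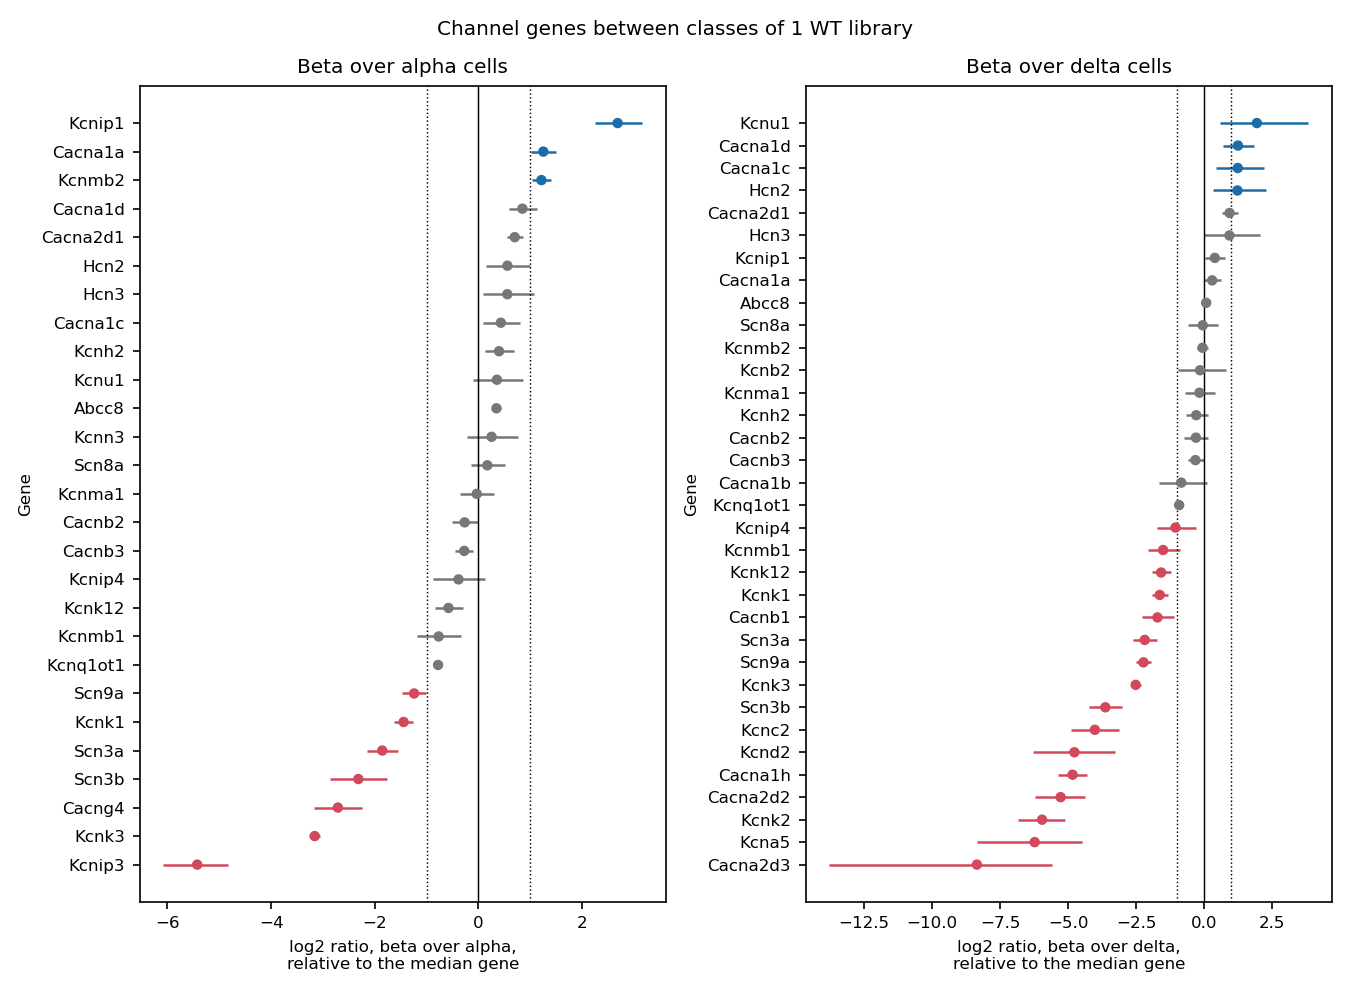
Log2 ratios of channel genes relative to the median gene, in beta over alpha cells on the left (27 of the 30 genes) and in beta over delta cells on the right (34 of the 36 genes), with 95% intervals of counting error and dotted lines at 2-fold. Blue marks higher and red lower past 2-fold, with Kcnip1 at the top and Kcnip3 at the bottom on the left, and 16 lower genes on the right.

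A list of 40 other genes of stimulus and secretion coupling, which are not channels of the families above, was compared in the same way. In beta over alpha cells 12 of 32 (37.5%) were higher and 2 (6.25%) lower, beside 8.28% and 8.21% of all genes, with a median of 0.35. In beta over delta cells 11 of 33 (33.3%) were higher and 2 (6.06%) lower, beside 8.01% and 9.91%, with a median of 0.47. In beta over PP cells 11 of 32 (34.4%) were higher and 2 (6.25%) lower, beside 7.44% and 7.14%, with a median of 0.51. In alpha over delta cells 0 of 32 were higher and 1, the calcium sensor gene Stim1, was lower (3.12%), beside 4.74% and 7.66%. Whether the list differs from the channel genes was not tested. The 3 highest in each beta contrast were Trpm5, a calcium-activated cation channel, Slc2a2, the glucose transporter GLUT2, and G6pc2, which opposes glucokinase. Against alpha cells they lay at 3.65, 3.64 and 3.61. In delta and PP cells their levels were not clear of free RNA: Trpm5 was at 16.2 and 18.9 CPM, against limits of 20.7 and 21.1, G6pc2 at 29.0 and 34.2, against 36.6 and 37.4, and Slc2a2 at 11.03 and 9.84, against 10.99 and 11.2, so no ratio is given for those classes. The alpha level of Slc2a2 was not clear of free RNA by its interval either. It was at 8.76 CPM on 69 UMIs, against a limit of 6.83, and its ratio of 3.64 carries that limit. Slc2a2 and G6pc2 are also among the beta markers. Gjd2, the connexin that couples beta cells electrically, lay at 1.92, 1.66 and 1.57, and the calcium pump Atp2a2 at 1.52, 1.76 and 1.36. Itpr1, an inositol trisphosphate receptor, was the lowest at −2.17, −2.55 and −1.97.

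For shares of cells, each barcode was thinned to 5610 UMIs and the barcodes with at least 1 UMI were counted. This matched total UMIs only. Hormone and mitochondrial UMIs made 59.9% of the total in beta, 32.1% in alpha, 25.9% in delta and 46.7% in PP cells, so fewer other UMIs remained in a thinned beta cell and its shares are the lower for it. Kcnk3 was found in 8.13% of beta (7.21% to 9.12%), 59.7% of alpha (55.1% to 64.1%), 47.0% of delta and 54.7% of PP cells. Kcnip1 was found in 13.2% of beta (12.1% to 14.5%), 1.70% of alpha (0.736% to 3.32%), 20.1% of delta and 0.855% of PP cells, and Kcnip3 in 0.153% of beta (0.0498% to 0.357%), 10.6% of alpha and 5.13% of PP cells. Abcc8 was found in 49.7%, 49.3%, 65.1% and 47.0% of beta, alpha, delta and PP cells. Cacna1h was found in 20.1% of delta cells (14.0% to 27.5%), against 0.521% of beta and 1.70% of alpha cells. At their own depth, 90.3% of beta cells held Abcc8 and 27.1% Kcnk3. Per 1000000 UMIs that are neither hormone nor mitochondrial, all members together stood at 1760 in beta, 1562 in alpha, 2311 in delta and 2112 in PP cells, while in CPM the beta sum was the lowest, at 705.8 against 1061, 1713 and 1126.

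Within beta cells, levels were set against the insulin share of the cell, as UMIs per 1000000 UMIs that are neither hormone nor mitochondrial. The bands of 30 to 40%, 40 to 50%, 50 to 60% and over 60% insulin held 473, 1058, 1339 and 391 cells. Kcnk3 stood at 65.0, 38.6, 33.2 and 20.8 over these bands, and the intervals of the first (58.5 to 72.1) and the last (16.5 to 25.9) were apart. Kcnq1ot1 stood at 334.6, 271.1, 220.4 and 181 in the same order, lower in each higher band. All members together, a sum that includes Kcnk3 and Kcnq1ot1, were also lower in each higher band, at 1984, 1786, 1694 and 1586. Kcnu1 went the other way, at 9.67, 11.3, 12.2 and 21.1. Abcc8 had no single direction, at 322.3, 291.2, 313.3 and 342.2, and Kcnmb2 stayed between 156.1 and 164.4. Hormones of other cells also moved over the bands. Sst stood at 2051, 765.5, 469 and 743.5 and Pyy at 2759, 1538, 1224 and 1360, and mitochondrial UMIs were 4.67% in the first band and 2.08% in the last. Their part in these values was not tested.

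**Figure D4:**
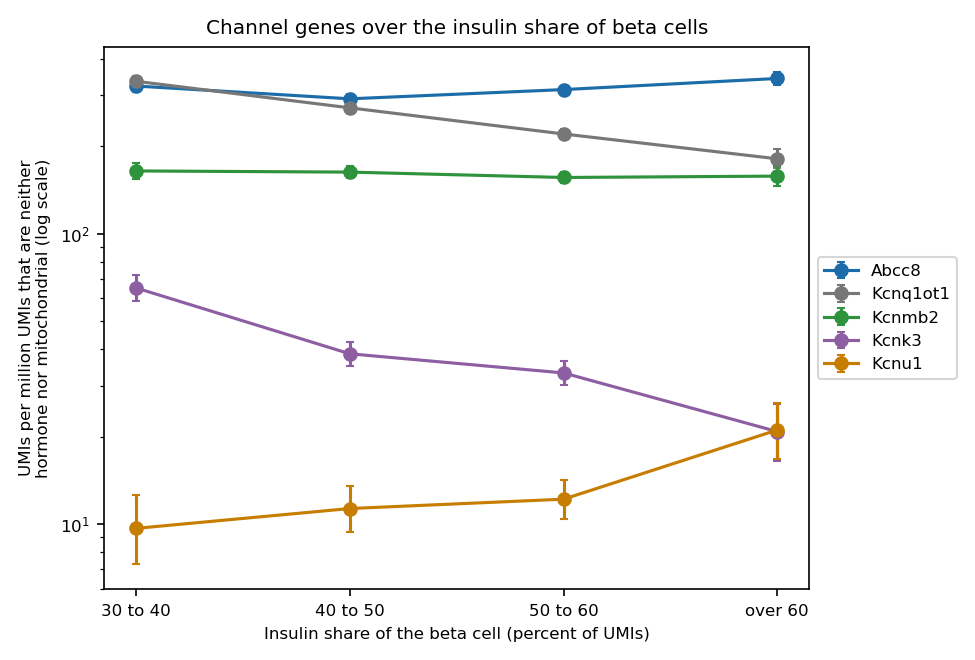
Level of 5 channel genes in UMIs per 1000000 UMIs that are neither hormone nor mitochondrial (log scale) over 4 bands of insulin share in WT beta cells, with 95% intervals of counting error. Kcnk3 lies at 65.0 in the lowest and 20.8 in the highest band, Kcnu1 at 9.67 and 21.1, and Abcc8 and Kcnmb2 are nearly level.

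The 549 barcodes of no endocrine class held 43 read members above the free RNA limit, among them Kcnn4 at 17.8 CPM and Kcnk5 at 7.01 CPM, which no endocrine class held at 5 CPM. They also held macrophage and endothelial markers at 909.8 and 791.6 CPM summed, against 39.6 to 81.3 and 16 to 22.1 CPM in the endocrine classes. Beta markers summed to 35570 CPM there, of which Iapp made 34797. That sum was 49997 CPM in beta cells and 8134 to 25707 CPM in the other endocrine classes. Insulin made 15.2% of the UMIs of these barcodes, so they are not all read as cells of other types. The 549 barcodes were split by at least 20 UMIs of a marker list, and the genes given here were picked after their values were seen. In 67 barcodes with macrophage markers, Kcnn4, an intermediate-conductance calcium-activated channel known from immune cells, stood at 157.5 CPM (131.2 to 187.6), with 126 of its 165 UMIs in the whole group. In 116 barcodes with endothelial markers, Kcnk5 (TASK-2) stood at 52.4 CPM with 54 of 65 UMIs. In the 54 barcodes with mesenchymal markers, 50 of which also carried the endothelial ones, Kcnk5 stood at 51.9 CPM. The KATP subunits of blood vessels were found there too. Abcc9 (SUR2), which is no member, had 20 of its 22 UMIs in these 54 barcodes and Kcnj8 (Kir6.1) 6 of 7. Abcc8 stood at 26.9 to 37.5 CPM in these 3 groups, below the 79.2 CPM that free RNA allowed in the undivided class. In 11 barcodes with ductal markers Abcc8 stood at 174.8 CPM (130.5 to 229.2), above that limit, and Kcnk3 at 80.7 CPM (51.7 to 120). The ductal list does not set duct cells apart here. Summed, it stood at 352.4 CPM in the undivided class and at 544.8, 731.9 and 514.4 CPM in alpha, delta and PP cells. Krt18 alone made 242 CPM in the undivided class and 499.8 CPM in alpha cells. These 11 barcodes are therefore not named as duct cells. A further barcode met the acinar list, and 354 barcodes met none of the lists.

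**Figure D5:**
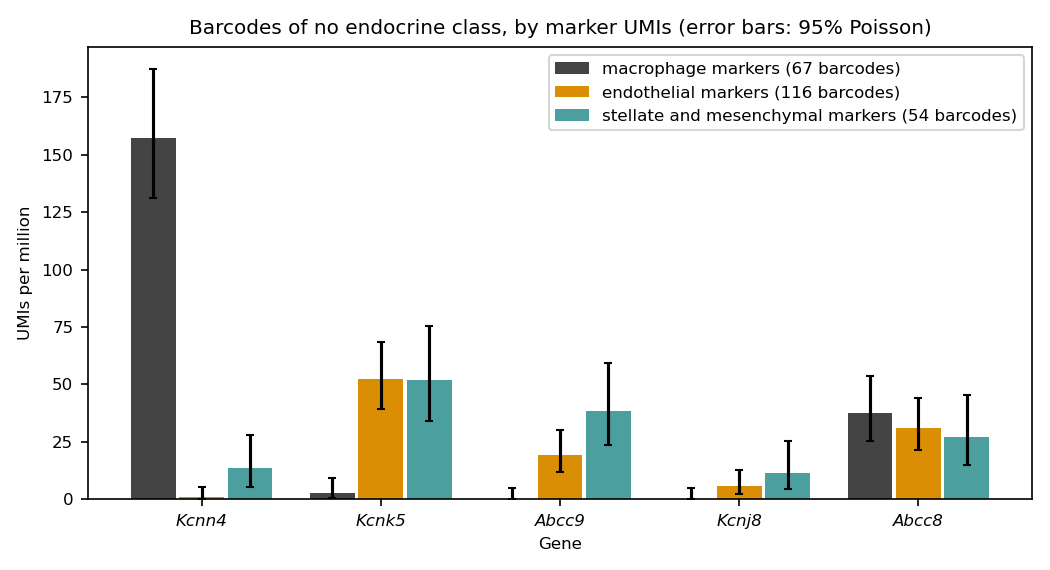
Level of 5 genes in CPM in WT barcodes of no endocrine class with at least 20 UMIs of macrophage, endothelial or mesenchymal markers, with 95% Poisson intervals. Kcnn4 stands at 157.5 CPM beside macrophage markers, and Kcnk5 at 51.9 to 52.4 CPM beside endothelial and mesenchymal ones.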

How the data were processed

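The deposited WT matrix holds UMI counts of 27998 genes in 737280 droplet barcodes, raw and unfiltered per the file headers; 88.3% of its 118523180 UMIs lay in the 4547 barcodes kept. Per the submitters' processing notes, FastQC, Trimmomatic and build mm10 were used; the aligner, counting tool and annotation were not given in the sources used here. Barcodes needed 5610 UMIs, which is 10% of the 99th percentile of the top 3000, and 500 genes. A barcode that met several hormone limits (63 did) took the first of beta, alpha, delta and PP. No doublet caller was run; barcodes that met several limits, and those above the 95th percentile of UMIs, were left out as alternatives.

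The counts of each class were summed and expressed as CPM, with exact Poisson intervals. Ratios have exact conditional binomial intervals, with a class at 0 set to 3 UMIs, and were tested on simulated data. Free RNA came from 589592 barcodes of at most 200 UMIs. Thinning used seed 7. With 1 library per group no p-value was computed. The members and lists were chosen with earlier results of these data known. Named genes were a fixed list, the 6 highest members per class and the 6 highest and 6 lowest ratios per contrast; others named, such as Kcnn4, Kcnk5, Scn3b, Cacng4, Kcnk1, Kcnk12 and Kcnn2 where they fell outside it, were named after their values were seen. All 144 members matched the annotation by ID, and 17 of the 43 read overlap exons of another gene. The search for features in proteins was not run, and some members are counted but not reported here by name or shown in the figures. The software was numpy 2.4.6, pandas 2.3.3, scipy 1.17.1 and matplotlib 3.10.9 in Python 3.11.15, and edgeR 4.0.16 in R 4.3.3 for the trimmed mean of M values as an alternative scaling.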

Additional observations from a re-analysis of the deposited data

How the results depend on the processing

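Of 1797 ratios of single genes under alternative settings, 809 were of genes past 2-fold in the values reported. None of these 809 changed sign, which was not counted for genes within 2-fold. Of the 809, 759 stayed inside the counting interval of the reported ratio and 50 moved outside it. A ratio inside that interval may still have fallen below 2-fold. Counts of members past 2-fold did move with the scaling, the floor and the fold. With no centring on the median gene, higher members were 1 of 30 in beta over alpha, 1 of 36 in beta over delta and 1 of 31 in beta over PP cells. The shares of all genes were 4.84%, 2.29% and 4.80%. Without hormone and mitochondrial UMIs in the totals, 5 of 30 were higher in beta over alpha cells, beside 16.5% of all genes. At a floor of 10 CPM, 1 of 27 was higher in beta over delta cells (7.13% of all genes) and 6 of 19 were lower in beta over PP cells (5.82%). In alpha over delta cells 1 of 28 was higher (3.91%) and 9 were lower (5.85%). At 20 CPM, 3 of 13 were lower in beta over alpha cells (8.25% of all genes) and 5 of 16 in beta over PP cells (5.53%). In beta over delta cells 1 of 20 was higher (6.63%) and 8 were lower (7.65%). In alpha over delta cells 0 of 19 were higher (3.34%) and 6 were lower (5.07%). With no floor, the higher and lower counts were 17 and 37 of 92 members in beta over alpha (11.3% and 15.2% of all genes), 9 and 41 of 80 in beta over delta (10.8% and 16.7%), 11 and 36 of 79 in beta over PP (10.2% and 15.02%) and 9 and 29 of 76 in alpha over delta cells (7.36% and 12.4%). Barcodes of at least 10000 UMIs left 59 of 149 delta barcodes. With these, 2 of 40 were higher in beta over delta (8.28% of all genes) and 2 of 40 in alpha over delta cells (4.89%). At 1.5-fold, 5 of 30 were higher in beta over alpha, 7 of 36 in beta over delta and 8 of 40 in alpha over delta cells. The shares of all genes were 17.5%, 17.8% and 11.9%. The cause was not tested beyond the smaller or larger number of genes each floor compares. At a floor of 10 CPM, 14 members were kept in beta, 19 in alpha and 18 in PP cells. At full depth the beta cells with a UMI were 90.3% for Abcc8, 76.7% for Kcnmb2, 46.2% for Kcnip1 and 27.1% for Kcnk3. The trimmed mean of M values, taking off the free RNA limit, single-hormone barcodes, stricter hormone limits and leaving out the deepest barcodes kept every count within 1.5 times of the values reported. A similar count could hold other members. In beta over delta cells, stricter hormone limits kept 2 of the 4 higher and 14 of the 16 lower members. Taking off the free RNA limit and leaving out the deepest barcodes each kept 3 of the 4 higher members.

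No paired analysis was possible because each group has 1 library. Counting error alone sets the intervals, so animals, dissociation and the day of preparation are not covered, and members under 5 CPM in every class, Kcnj11 among them, enter the ratios only where no floor was set.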
